A study of Homo sapiens with 12 samples.

Results

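Epithelial and mesenchymal state genes were followed here across 12 RNA-seq libraries of hepatocellular carcinoma (HCC) cells. The genes were taken by name from a list of 10 (CDH1, CDH2, VIM, EPCAM, ESRP1, ZEB1, ZEB2, SNAI1, SNAI2 and TWIST1), and all 10 were among the 22963 gene names of the expression table. The study manipulated the transcription factor EGR1 in a pair of human HCC lines and had 4 groups of 3 libraries each, called biological replicates in the labels. In PLC/PRF5 cells, Vector was the control carrying the empty lentiviral vector and EGR1 overexpressed EGR1 from the CMV promoter of that vector, in all cells of the line and not in a chosen cell type. In MHCC97H cells, Parental was titled the parental line and its libraries were also described as Mock, and EGR1_KO was labelled EGR1 knockout. What Mock stands for is not given in the labels. The knockout lines were made with CRISPR/Cas9 as single clones and the clone sequenced was not named, so a difference from Parental cannot be told apart from a difference between one clone and the uncloned line. No vector control is named for MHCC97H. Both lines were grown in DMEM with fetal bovine serum, and apart from the word Mock the labels give no treatment. Expression was given as FPKM, in which fragment counts are divided by transcript length and by library size. The libraries were treated with a duplex-specific nuclease that removes abundant cDNA, so comparisons of level between different genes are approximate.

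The epithelial state depends on cells held together by E-cadherin, the product of CDH1, while cells in the mesenchymal state are loosely attached, express N-cadherin (CDH2) and vimentin (VIM), and migrate. The passage from the first to the second, the epithelial-mesenchymal transition (EMT), is driven by transcriptional repressors of the ZEB, SNAIL and TWIST families, which bind E-box sequences and silence epithelial genes, among them CDH1. Hepatocytes are epithelial cells that normally carry E-cadherin, and carcinomas of the liver often hold cells in between both states.

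EGR1 mRNA, the check of the labels, measured 1.97, 1.43 and 2.03 FPKM in Vector and 56.3, 50.2 and 52.2 FPKM in EGR1 libraries. In MHCC97H it measured 20.2, 23.1 and 21.2 FPKM in Parental and 35.2, 50.3 and 32.9 FPKM in the libraries labelled EGR1 knockout. The libraries labelled knockout therefore had more EGR1 mRNA than Parental (log2 difference 0.83, SE 0.148, limma adjusted p = 0.00126), without overlap. With the correction for transcript GC content and length described below, the difference was 0.42 (SE 0.162) and did not pass (adjusted p = 0.0608). It passed when the replicate number was added to that fit as a block (adjusted p = 0.0139). The mRNA thus did not show the loss that the label names, but mRNA of an edited gene can remain and says nothing of the protein, and the methods state that knockout clones were checked by western blot and by sequencing of their DNA. Libraries had FPKM totals from 376335 to 437652, and the number of reads behind them is unknown, so the precision given below is the spread between libraries only. Genes that averaged 1 FPKM or more in the libraries compared were tested with limma after a log2(FPKM + 1) transformation, and a gene passed when its Benjamini-Hochberg adjusted p was under 0.05. A gene under 1 FPKM in one group was tested only through the group where it was high and had to differ, so such genes are described by their levels, and the counts of lists include them. A second set of values, called corrected below, had the trend of each library with transcript GC content and length removed by splines. Keratins of simple epithelia were high in all libraries, with KRT8 between 970.5 and 1935.8 FPKM and KRT18 between 473.0 and 1263.3 FPKM. The summed FPKM of 10 hepatocyte markers lay between 1844.1 and 1970.8 in Vector but between 14.0 and 19.2 in Parental. SERPINA1 made up most of the Vector sum, with a mean of 1371.5 FPKM. In Parental, APOA2 was listed at 0 and ALB averaged 0.885 FPKM. HNF4A averaged 45.6 FPKM in Vector and still 9.64 in Parental, and TTR was low in both, at 0.22 and 0.293 FPKM.

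The sequences below show start regions of ZEB1 and CDH2. Among those of the 10 genes that were tested, ZEB1 had the largest log2(FPKM + 1) difference within MHCC97H and CDH2 the largest between the lines. The sequences run from 250 bases before to 50 bases after an annotated RefSeq start. They were read 5′ to 3′ on the strand of the gene from RefSeq on GRCh38.p14, with E-boxes in capitals.
ZEB1, chr10:31318966-31319265, plus strand: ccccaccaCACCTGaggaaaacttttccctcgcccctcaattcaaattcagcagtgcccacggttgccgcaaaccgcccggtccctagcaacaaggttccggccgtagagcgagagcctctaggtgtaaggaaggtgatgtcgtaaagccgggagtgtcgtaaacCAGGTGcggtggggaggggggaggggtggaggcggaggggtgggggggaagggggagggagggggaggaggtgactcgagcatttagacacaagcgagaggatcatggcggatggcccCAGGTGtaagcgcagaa
CDH2, chr18:28177081-28177380, minus strand: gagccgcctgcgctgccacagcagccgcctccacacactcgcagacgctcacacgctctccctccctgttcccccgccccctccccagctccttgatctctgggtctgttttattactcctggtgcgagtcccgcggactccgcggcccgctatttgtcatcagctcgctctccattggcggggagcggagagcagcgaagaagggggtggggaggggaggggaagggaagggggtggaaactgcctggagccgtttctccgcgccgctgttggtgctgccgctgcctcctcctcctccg
The promoter table had windows for 4 of the 10 genes: 7 for ZEB1, 2 for CDH2, 1 for VIM and 1 for ZEB2. The E-box searched was CAGGTG on either strand (CACCTG on the other), and 20.6% of all 35116 windows held it. Of the 11 windows, 2 held it, both of ZEB1: the window printed has 3 E-boxes, whose first bases lie at -242, -85 and 33 with the start base as 0, and another, chr10:31318167-31318466, has 1 at -57. The EGR1 motif GCGNGGGCG, searched on both strands, was in 9.43% of all windows and in 0 of the 11. A match is a description of the letters and no evidence of binding, and its absence from these windows says nothing about EGR1.

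Of the 10 genes, 5 (CDH2, VIM, ZEB1, SNAI1 and CDH1) averaged at least 1 FPKM in some group, and 5 did not. ZEB2 reached 1.08 FPKM in a single library and SNAI2 0.849 FPKM at most, while EPCAM, ESRP1 and TWIST1 stayed at or under 0.108 FPKM in all 12 libraries. CDH2, VIM, ZEB1 and SNAI1 were above 0 in every library. VIM was the one of these whose level was nearly the same in both lines, and CDH2 the most abundant of the 10 in MHCC97H.

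**Figure D1:**
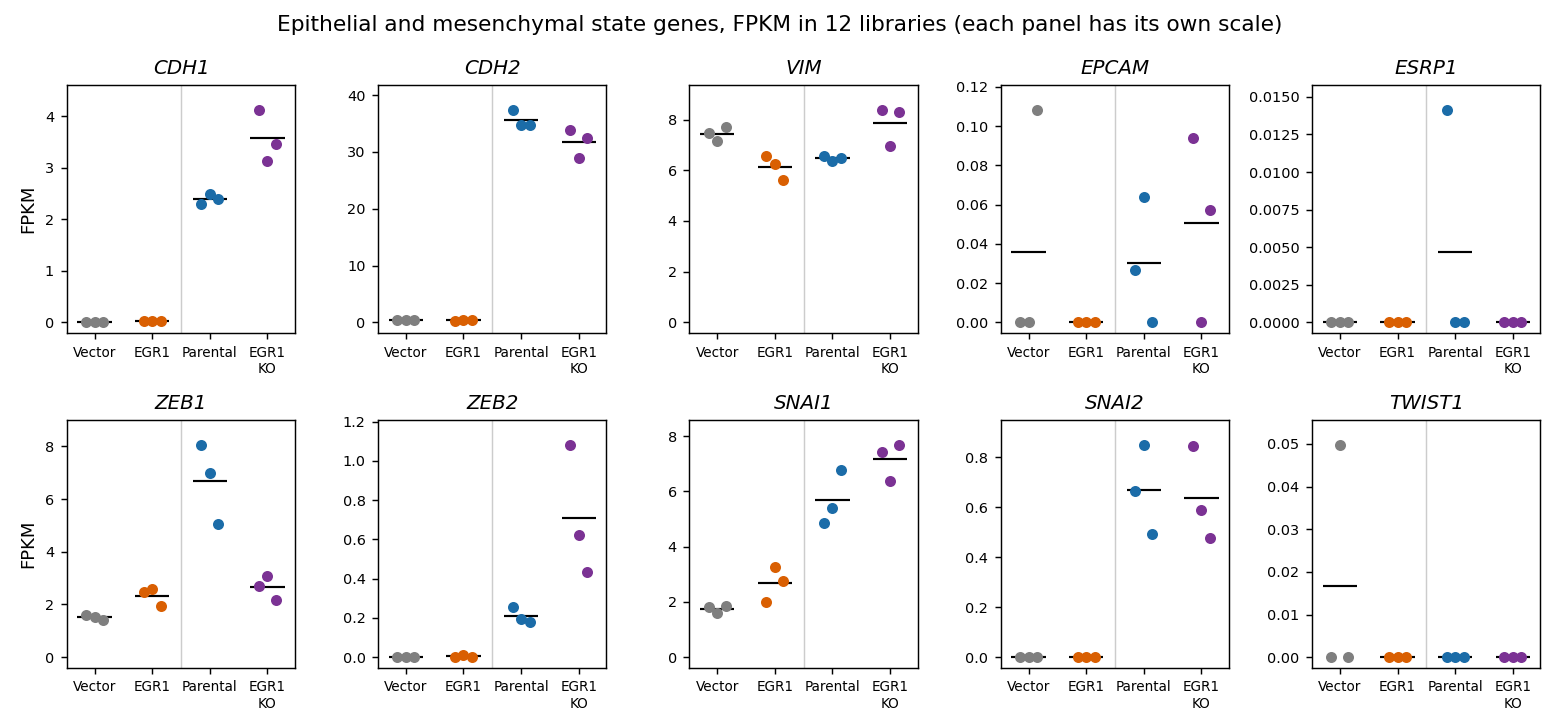
FPKM of each of the 10 genes in the 12 libraries, 1 point a library and a bar at the mean of each group, with a separate linear scale for each gene and a line between the PLC/PRF5 groups (left) and the MHCC97H groups (right). CDH1 and CDH2 sit near 0 in PLC/PRF5 and above it in MHCC97H, VIM lies between 5.6 and 8.36 FPKM throughout, ZEB1 is highest in Parental, and EPCAM, ESRP1 and TWIST1 are at or near 0.

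The first comparison asked how the control states of the lines differed, Parental MHCC97H against Vector PLC/PRF5. Both cadherins, ZEB1 and SNAI1 were higher in MHCC97H, and VIM was not separated by the test. In this comparison 5 of the 10 genes were tested and 4 passed, all higher in MHCC97H, against a background in which 79.8% of 12046 genes passed, 38.8% higher and 40.9% lower, so 4 of 5 is near the background. The cadherins were under 1 FPKM in Vector and entered through Parental alone, which leaves ZEB1, SNAI1 and VIM with a test of their own. Since there is 1 line on each side, the line and anything handled per line cannot be told apart.

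N-cadherin, CDH2 on chromosome 18 (GRCh38, 27950966 to 28177446, minus strand), measured 0.441, 0.348 and 0.509 FPKM in Vector and 37.3, 34.8 and 34.8 FPKM in Parental. The Parental mean was 82.3 times the Vector mean, and the groups did not overlap, as for 81.0% of all genes tested between these lines. The difference in log2(FPKM + 1) was 4.68 (SE 0.094, n = 3 against 3). E-cadherin, CDH1 on chromosome 16 (68737225 to 68835548, plus strand), was listed at 0, 0.00745 and 0.00777 FPKM in Vector and at 2.29, 2.49 and 2.40 FPKM in Parental. Its log2 difference was 1.75 (SE 0.0769). PLC/PRF5 thus had next to no CDH1 mRNA and MHCC97H a low level of it beside a far higher level of CDH2. In Parental the ratio of CDH2 to CDH1 FPKM was 16.3, 14.0 and 14.5.

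Vimentin, the intermediate filament protein of mesenchymal cells, is encoded by VIM on chromosome 10 (17228259 to 17237593, plus strand), and was nearly level. Vector libraries had 7.45, 7.14 and 7.71 FPKM and Parental libraries 6.55, 6.38 and 6.48 FPKM. The ranges did not overlap, yet the log2 difference of -0.17 (SE 0.0871) did not pass (limma adjusted p = 0.0941). In both lines VIM was far below the epithelial keratin KRT8.

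ZEB1, a repressor that acts on E-box sequences, lies on chromosome 10 (31318495 to 31529814, plus strand) and measured 1.60, 1.52 and 1.43 FPKM in Vector and 8.05, 7.01 and 5.05 FPKM in Parental. Parental libraries varied among themselves more than Vector libraries did, and none fell into the Vector range. The log2 difference was 1.59 (SE 0.148, limma adjusted p = 1.18e-05), and 1.04 corrected for GC content and length. SNAI1, the SNAIL repressor, on chromosome 20 (49982999 to 49988886, plus strand), measured 1.82, 1.60 and 1.84 FPKM in Vector and 4.84, 5.40 and 6.76 FPKM in Parental. Its log2 difference was 1.27 (SE 0.123, adjusted p = 1.55e-05). For both repressors the MHCC97H level was higher without overlap, so the line with measurable CDH1 was also the line with more ZEB1 and SNAI1.

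ZEB2, the paralog of ZEB1, lies on chromosome 2 (144364364 to 144524583, minus strand). It was listed at 0 in the 3 Vector libraries and at 0.258, 0.193 and 0.179 FPKM in Parental, under the filter of 1 FPKM. SNAI2, the SLUG repressor, on chromosome 8 (48917604 to 48921740, minus strand), was listed at 0 in all 6 PLC/PRF5 libraries and at 0.667, 0.849 and 0.492 FPKM in Parental. Both were thus seen in MHCC97H and hardly or not at all in PLC/PRF5. FPKM below 1 carry no depth by which to judge a 0.

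EPCAM, an adhesion molecule of epithelial and hepatic progenitor cells on chromosome 2 (47345158 to 47387601, plus strand), was above 0 in 5 of 12 libraries. The highest was 0.108 FPKM in 1 Vector library. ESRP1, a splicing regulator of epithelial cells on chromosome 8 (94641074 to 94707466, plus strand), was above 0 in 1 Parental library alone, at 0.0141 FPKM. TWIST1, a basic helix-loop-helix factor of the mesenchyme on chromosome 7 (19020991 to 19117672, minus strand), was above 0 in 1 Vector library, at 0.0497 FPKM. The ranges of neighbouring groups overlapped for all 3 genes, so no level was set against another.

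Companion genes were followed in lists of known roles, and those named were taken from up to 2 rises and 2 falls of each list, so the examples show both directions by choice. Of 24 epithelial junction genes, 21 were tested, of which 9 were higher and 10 lower in Parental MHCC97H, with a median log2 difference of 0.13 beside -0.02 over all genes. The claudins went opposite ways: CLDN4 averaged 45.2 ± 16.6 FPKM (SD, n = 3) in Parental and 1.15 ± 0.354 in Vector, and CLDN1 averaged 0.599 ± 0.0419 in Parental and 88.2 ± 6.02 in Vector. LSR, a protein of tricellular junctions, followed CLDN1 with 0.288 ± 0.0482 against 69.4 ± 4.31 FPKM, and the desmosomal plakophilin PKP3 followed CLDN4 with 27.5 ± 2.31 against 0.670 ± 0.145 FPKM.

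Among 20 genes of the epithelial surface and its regulators, 13 were tested, and 3 were higher and 7 lower in MHCC97H (median -0.33, or -0.18 with the correction). KRT19, a keratin of biliary and progenitor cells, averaged 130.7 ± 13.7 FPKM in Parental and 0.624 ± 0.152 in Vector. The related protease inhibitors SPINT1 and SPINT2 were inverse, with SPINT1 at 11 ± 0.988 against 0.182 ± 0.0504 FPKM and SPINT2 at 0.678 ± 0.148 against 268.8 ± 22.2 FPKM. CD24, a surface glycoprotein, averaged 16.6 ± 0.827 FPKM in Parental and 112.2 ± 18.1 in Vector.

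Of 28 mesenchymal genes, 19 were tested, with 11 higher and 7 lower in MHCC97H and a median of 0.45, or 0.17 with the correction. The calcium-binding protein S100A4 averaged 1172.0 ± 148.1 FPKM in Parental and 16.1 ± 3.75 in Vector, and the hyaluronan receptor CD44 49.7 ± 2.32 against 0.831 ± 0.211 FPKM. In the other direction, the receptor tyrosine kinase AXL averaged 8.13 ± 0.412 against 59.4 ± 7.92 FPKM and the myosin light chain MYL9 0.296 ± 0.0939 against 9.26 ± 2.14 FPKM. Among 12 other cadherins and catenins, 2 were higher and 6 lower of 8 tested (median -0.31). Liver-intestine cadherin, CDH17, was the larger of the rises, at 79.0 ± 7.5 FPKM in Parental and 10.0 ± 0.134 in Vector, while β-catenin (CTNNB1) averaged 80.7 ± 5.92 against 116.1 ± 9.45 FPKM. Of 18 further EMT factors and corepressors, 12 were tested, and 6 were higher and 3 lower (median 0.29). TWIST2, the paralog of TWIST1, averaged 2.49 ± 0.247 FPKM in Vector and 0.0131 ± 0.0228 in Parental, the reverse of ZEB1 and SNAI1.

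Splicing regulators of EMT were tested in full, 9 of 9, with 4 higher and 4 lower in MHCC97H. Their median of -0.19 turned to 0.11 with the correction and to 0.01 with quantile normalization. ESRP2, the paralog of ESRP1, was expressed in both lines, at 11.3 ± 0.900 FPKM in Vector and 3.73 ± 0.264 in Parental, whereas ESRP1 was next to absent. Muscleblind MBNL1 averaged 74.9 ± 12.1 FPKM in Parental and 9.80 ± 2.08 in Vector. Of 13 TGF-β ligands, receptors and SMADs, 12 were tested, with 7 higher and 1 lower in MHCC97H and a median of 0.61. Over all genes 38.8% were higher and 40.9% lower. With the correction, under which 9069 of 11214 genes passed, 6 were higher and 3 lower, with a median of 0.25. The ligand TGFB2 averaged 16.1 ± 2.09 FPKM in Parental and 1.08 ± 0.199 in Vector, and TGFB1 44.6 ± 3.22 against 17.5 ± 0.921 FPKM.

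**Figure D2:**
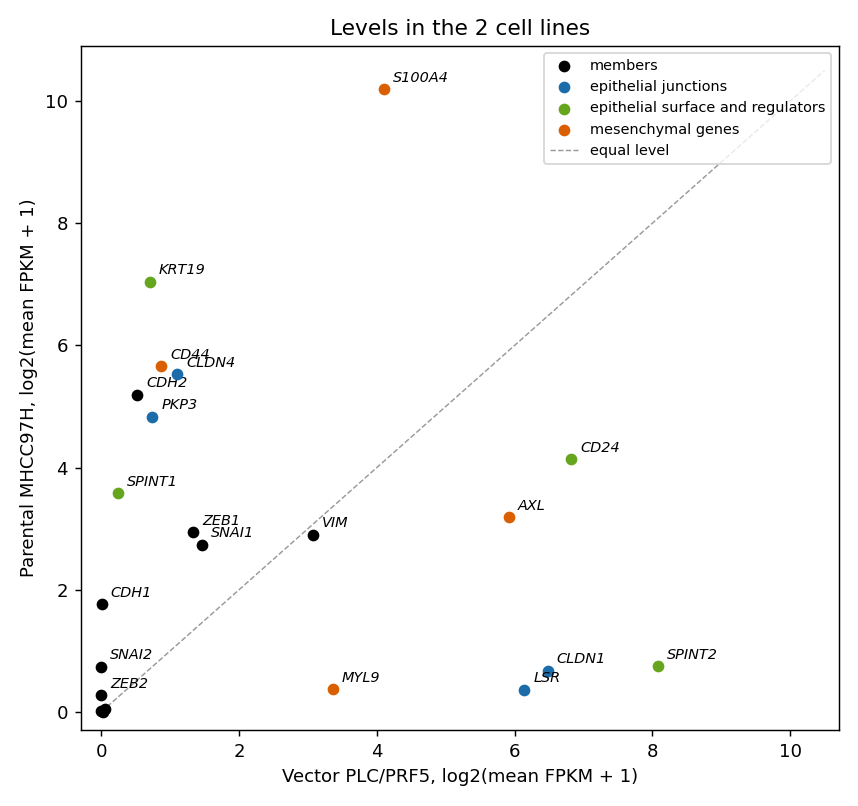
Mean level of the 10 genes and of the named companion genes in Vector PLC/PRF5 (x axis) and Parental MHCC97H (y axis), both as log2 of the mean FPKM plus 1, with a dashed line of equal level. Points above the line are higher in MHCC97H, as CDH1, CDH2, ZEB1 and SNAI1 are, VIM lies close to it, and epithelial genes such as CLDN1 and CLDN4 or SPINT2 and SPINT1 fall on opposite sides.

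The second comparison asked what EGR1 overexpression changed in PLC/PRF5, against Vector. Only VIM, ZEB1 and SNAI1 were expressed enough to be tested, and 1 of the 3, ZEB1, passed, near the background in which 29.6% of 11671 genes passed, 19.2% higher and 10.4% lower. ZEB1 measured 1.60, 1.52 and 1.43 FPKM in Vector and 2.46, 2.60 and 1.95 FPKM in EGR1 libraries. Every EGR1 library was above every Vector library, as for 47.7% of all genes in one direction or the other. ZEB1 rose by 0.40 in log2(FPKM + 1) (SE 0.11, limma adjusted p = 0.0259), 1.54 times on the FPKM scale. That call was lost without Vector replicate 3, EGR1 replicate 1 or EGR1 replicate 2 (adjusted p = 0.0807, 0.0653 and 0.106). With quantile normalization the difference was 0.25 (adjusted p = 0.133), and with the correction for GC content and length it was 0.06 (adjusted p = 0.726).

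SNAI1 measured 1.82, 1.60 and 1.84 FPKM in Vector and 1.99, 3.26 and 2.77 FPKM in EGR1 libraries, without overlap but with EGR1 replicate 1 close to the controls. The log2 difference was 0.40 (SE 0.138) and did not pass (limma adjusted p = 0.0553). It passed with the correction for GC content and length, at 0.46 (adjusted p = 0.0124), and without EGR1 replicate 1, at 0.54 (adjusted p = 0.0167). VIM measured 7.45, 7.14 and 7.71 FPKM in Vector and 6.58, 6.24 and 5.6 FPKM in EGR1 libraries, all 3 below the controls. Its log2 difference of -0.24 (SE 0.0947) did not pass (adjusted p = 0.0835), and with the correction it was -0.27 (adjusted p = 0.0466).

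The remaining 7 genes stayed under the filter in PLC/PRF5. CDH2 was at 0.441, 0.348 and 0.509 FPKM in Vector and 0.331, 0.467 and 0.359 FPKM in EGR1 libraries, with overlapping ranges. CDH1 stayed near 0, at 0.0193, 0.0210 and 0.0304 FPKM in EGR1 libraries against 0 to 0.00777 FPKM in Vector. Those ranges did not overlap, but an exact permutation test of 3 libraries against 3, 2-sided, cannot go below 0.1, and CDH1 did not pass when genes above 0 in any library were tested (limma adjusted p = 0.317). ZEB2 was above 0 in 1 EGR1 library, at 0.0104 FPKM, and EPCAM, ESRP1, SNAI2 and TWIST1 were listed at 0 in all 3 EGR1 libraries. With EGR1 at 52.9 ± 3.1 FPKM, PLC/PRF5 cells therefore kept CDH1 and CDH2 below 1 FPKM.

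The third comparison set the libraries labelled EGR1 knockout against Parental MHCC97H. ZEB1 fell and CDH1 rose, the 2 that passed of 5 tested, while CDH2, VIM and SNAI1 did not pass. Here 66.3% of 11577 genes passed, 34.8% higher and 31.5% lower, and the groups did not overlap for 71.8%. With the correction 4 of the 5 passed beside 5133 of 10806 genes, and with quantile normalization 4 beside 7590 of 11577, so nothing is read from the count of members. ZEB1 went from 8.05, 7.01 and 5.05 FPKM in Parental to 2.72, 3.07 and 2.18 FPKM in the libraries labelled knockout. No library labelled knockout reached the lowest Parental library, and the Parental mean was 2.52 times theirs. The log2 difference was -1.06 (SE 0.163, limma adjusted p = 0.000567), and -0.43 with the correction for GC content and length (SE 0.0885, adjusted p = 0.00521), so the call held and its size shrank.

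CDH1 went the other way, from 2.29, 2.49 and 2.40 FPKM in Parental to 4.11, 3.12 and 3.46 FPKM in the libraries labelled knockout. Parental libraries were tightly grouped and all 3 others lay above them. The rise was 0.42 in log2(FPKM + 1) (SE 0.116, limma adjusted p = 0.0103), or 1.49 times in FPKM, and 0.39 with the correction (adjusted p = 0.00692). After scaling of all libraries to a common total, which shifted the median of all genes by -0.13, it was 0.31 and missed the threshold (adjusted p = 0.0526). CDH2 measured 37.3, 34.8 and 34.8 FPKM in Parental and 33.8, 29 and 32.5 FPKM in the libraries labelled knockout. Although the ranges did not overlap, the log2 difference of -0.16 (SE 0.0895) did not pass (adjusted p = 0.134), and it was 0.00 with the correction and -0.36 with quantile normalization (adjusted p = 0.00442), and -0.31 after scaling to a common total (adjusted p = 0.0148). The ratio of CDH2 to CDH1 FPKM was 16.3, 14.0 and 14.5 in Parental (mean 14.9 ± 1.22 SD) and 8.21, 9.30 and 9.37 in the libraries labelled knockout (mean 8.96 ± 0.652 SD). In FPKM, CDH2 exceeded CDH1 in all 6 libraries, by a smaller margin in those labelled knockout.

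SNAI1 measured 4.84, 5.40 and 6.76 FPKM in Parental and 7.43, 6.37 and 7.67 FPKM in the libraries labelled knockout, with overlap. The log2 difference of 0.30 (SE 0.13) did not pass (limma adjusted p = 0.0679), and it turned to -0.33 with the correction for GC content and length (adjusted p = 0.0161), so no direction can be given for SNAI1 in MHCC97H. Without Parental replicate 3 or EGR1_KO replicate 2 it passed at 0.41 and 0.37 (adjusted p = 0.0183 and 0.045). VIM measured 6.55, 6.38 and 6.48 FPKM in Parental and 8.36, 6.97 and 8.28 FPKM in the libraries labelled knockout. All 3 were higher than Parental, with a log2 difference of 0.24 (SE 0.103) that did not pass (adjusted p = 0.061) and was 0.24 with the correction (adjusted p = 0.0369), 0.32 without EGR1_KO replicate 2 (adjusted p = 0.029) and 0.11 after scaling to a common total (adjusted p = 0.396).

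ZEB2 values lay the other way from ZEB1, going from 0.258, 0.193 and 0.179 FPKM in Parental to 1.08, 0.620 and 0.432 FPKM in the libraries labelled knockout. The ranges did not overlap and the mean was 3.39 times the Parental mean, but the gene stayed under the filter of 1 FPKM. Tested among genes above 0 in any library it passed (limma adjusted p = 0.0294), as did 8051 of 18820 genes. No corrected value is given for ZEB2, which was under the filter. SNAI2 was level, at 0.667, 0.849 and 0.492 FPKM in Parental and 0.844, 0.588 and 0.479 FPKM in the libraries labelled knockout, with overlapping ranges. EPCAM was at 0.0265, 0.0638 and 0 FPKM in Parental and 0.0939, 0 and 0.0573 FPKM in the others, and ESRP1 and TWIST1 were listed at 0 in the 3 libraries labelled knockout.

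**Figure D3:**
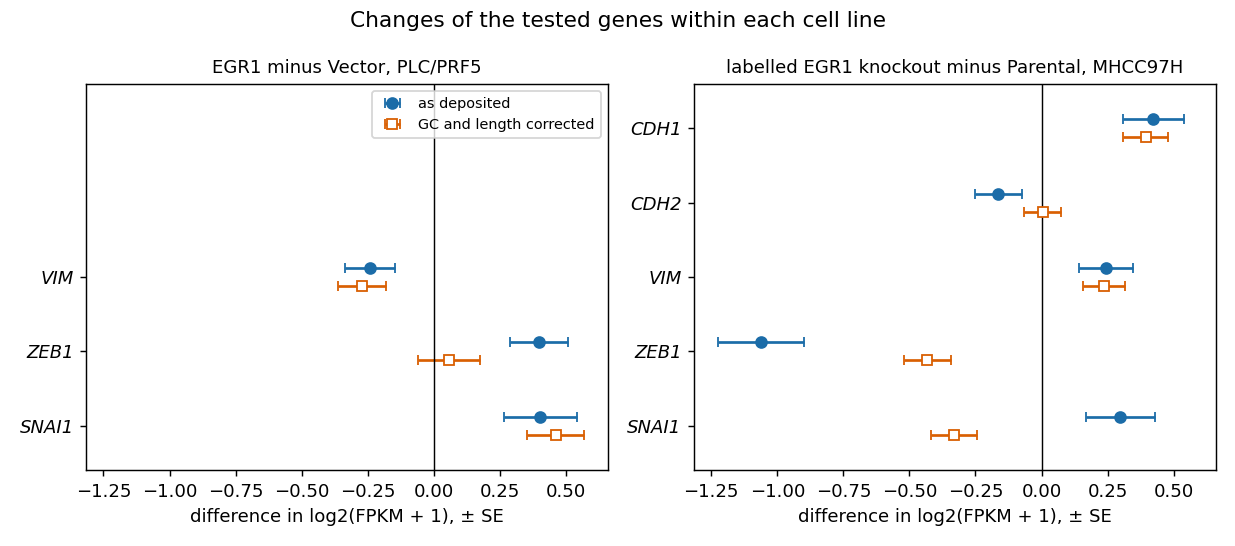
Difference in log2(FPKM + 1) with its SE for the tested genes, EGR1 minus Vector in PLC/PRF5 (left) and libraries labelled EGR1 knockout minus Parental in MHCC97H (right), as deposited (filled circles) and corrected for GC content and length (open squares). The ZEB1 difference shrinks from 0.40 to 0.06 and from -1.06 to -0.43, SNAI1 in MHCC97H changes sign from 0.30 to -0.33, and CDH1 and VIM hardly move.

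Transcript GC content moved with the changes of all genes and was unequal among these 10. The longest annotated transcript of ZEB1 has a GC content of 38.5%, CDH2 45%, VIM 46.9%, CDH1 48.6% and SNAI1 58.2%. Over all genes under 40% GC the median log2 difference was 0.36 in PLC/PRF5 and -0.65 in MHCC97H, and over genes from 55 to 60% GC it was -0.03 and 0.51. ZEB1, at 0.40 and -1.06, lay on the same side as genes of its GC class in both lines, and SNAI1, at 0.30 in MHCC97H, lay below the median of its class. The correction removes whatever follows GC content or length, of biological or technical origin, and the part of either was not tested.

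**Figure D4:**
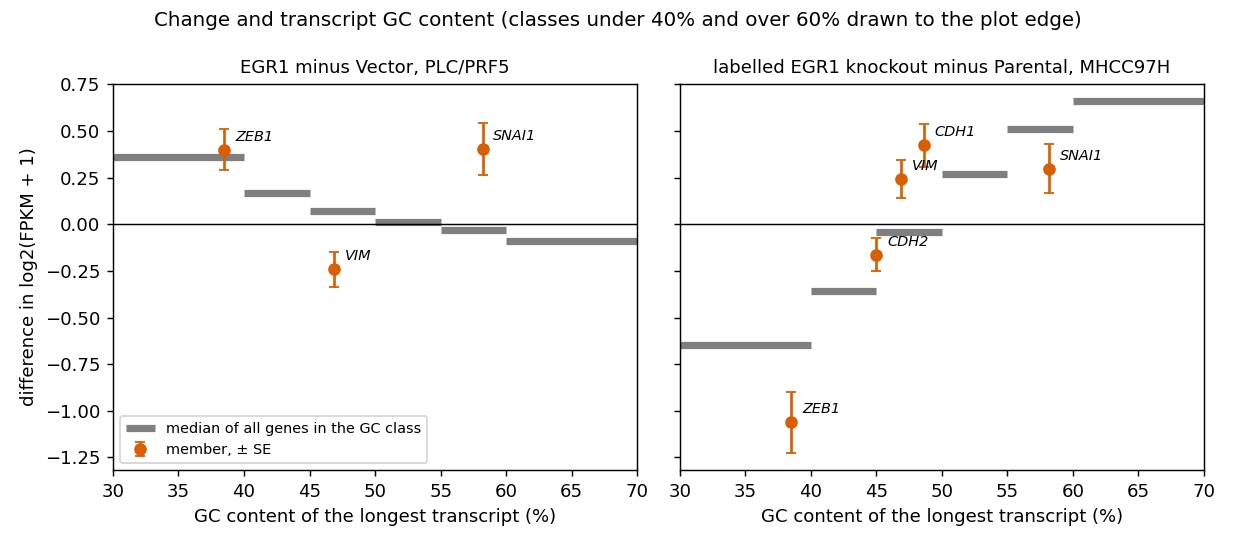
GC content of the longest transcript in % (x axis) and difference in log2(FPKM + 1) (y axis) for the tested genes with their SE, over the median of all genes in each GC class (grey bars), in PLC/PRF5 (left) and MHCC97H (right). The grey medians run from 0.36 down to -0.09 in PLC/PRF5 and from -0.65 up to 0.66 in MHCC97H, with ZEB1 at the low GC end of both.

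Whether a gene moved differently in the lines was tested as the change in MHCC97H minus the change in PLC/PRF5, in one fit of all 12 libraries in which 63.8% of 12090 genes passed. ZEB1, CDH1 and VIM passed of 5 tested, near that background. ZEB1 differed by -1.46 (SE 0.203, limma adjusted p = 8.13e-05), higher with EGR1 overexpression in 1 line and lower in the libraries labelled knockout of the other, and by -0.51 with the correction (adjusted p = 0.0117). VIM differed by 0.49 (SE 0.126, adjusted p = 0.00487), with all EGR1 libraries below Vector and all libraries labelled knockout above Parental, although neither change passed alone. CDH1 differed by 0.40 (SE 0.12, adjusted p = 0.0117). It was near 0 in PLC/PRF5 and tested through MHCC97H alone, so its change in PLC/PRF5 is held near 0 on the log2(FPKM + 1) scale, and it did not pass with a pseudocount of 0.1 (adjusted p = 0.186) or after scaling to a common total (adjusted p = 0.0724). CDH2 and SNAI1 did not pass (adjusted p = 0.437 and 0.653), though SNAI1 did with the correction, at -0.76 (adjusted p = 0.000835). CDH2 averaged 0.433 FPKM in Vector and 0.385 in EGR1 libraries, so it too was tested through MHCC97H alone. Its change in PLC/PRF5 is likewise held near 0 on that scale. EGR1 mRNA was higher than in the controls in both altered groups. In MHCC97H its call was lost with the correction (limma adjusted p = 0.0608) but not with the correction and a replicate block together (adjusted p = 0.0139).

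In PLC/PRF5, 19.2% of all genes tested rose and 10.4% fell with EGR1. Of 18 epithelial junction genes tested, 4 rose and 6 fell (median -0.02 beside 0.09 over all genes). DSP, the desmosomal plaque protein desmoplakin, rose from 33.4 ± 7.19 to 51.9 ± 2.45 FPKM and CLDN1 from 88.2 ± 6.02 to 115.1 ± 3.1, while the junctional protein TJP3 fell from 3.83 ± 0.255 to 1.82 ± 0.0888 FPKM. Of 10 epithelial surface genes and regulators 0 rose and 2 fell by limma (also 0 and 2 at an unadjusted p under 0.05), SPINT2 from 268.8 ± 22.2 to 153.5 ± 16.1 FPKM and CD24 from 112.2 ± 18.1 to 72.6 ± 0.947 FPKM. Of 17 mesenchymal genes, 5 rose and 6 fell (median 0.07). CD44 rose from 0.831 ± 0.211 to 2.56 ± 0.508 FPKM, tested through the EGR1 libraries alone. LOX, a collagen cross-linking enzyme, fell from 3.64 ± 0.358 to 0.803 ± 0.036 FPKM (log2 difference -1.36, SE 0.102), tested through Vector alone.

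Plakoglobin (JUP) was the single one of 8 tested cadherins and catenins that rose, from 48.6 ± 3.0 to 67.5 ± 2.43 FPKM, with 0 falling by limma, also at an unadjusted p under 0.05. Among the EMT factors and corepressors 2 rose and 3 fell of 12 tested. TWIST2 fell from 2.49 ± 0.247 to 1.74 ± 0.115 FPKM, a call not kept with the correction (adjusted p = 0.0795). Of 9 splicing regulators, 5 rose and 0 fell by limma (5 and 1 at an unadjusted p under 0.05), with a median of 0.32. Of all genes, 19.2% were higher and 10.4% lower. With the correction, under which 3657 of 10829 genes passed, 4 rose and the median was 0.00. With quantile normalization, under which 3273 of 11671 genes passed, 3 rose. MBNL2 rose from 4.48 ± 1.40 to 11.7 ± 0.459 FPKM and MBNL1 from 9.80 ± 2.08 to 17.6 ± 2.06 FPKM. Of 13 TGF-β genes, 3 rose and 1 fell (2 and 4 with the correction), among them TGFB1 from 17.5 ± 0.921 to 28.5 ± 4.09 FPKM and the latent TGF-β binding protein LTBP1 from 4.79 ± 0.183 down to 1.69 ± 0.177 FPKM.

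In MHCC97H the companion lists moved as follows in the libraries labelled knockout, where 34.8% of all genes were higher and 31.5% lower. With the correction 5133 of 10806 genes passed. Epithelial junction genes split into 5 higher and 6 lower of 18 tested (median -0.07 beside 0.02 over all genes), or 2 higher and 6 lower with the correction. The plakophilin PKP2 fell from 9.90 ± 0.601 to 3.70 ± 0.308 FPKM and the scaffold protein TJP1 from 32.3 ± 2.45 to 15.2 ± 2.48 FPKM, and both calls held with the correction. CRB3, a polarity protein, rose from 8.76 ± 0.993 to 17.4 ± 0.869 FPKM, which the correction ended (adjusted p = 0.123). Epithelial surface genes and regulators had 7 higher and 2 lower of 10 tested (median 0.57), or 6 and 4 with the correction. CD24 rose from 16.6 ± 0.827 to 103.0 ± 6.87 FPKM (log2 difference 2.56, SE 0.0872, limma adjusted p = 5.25e-07), whereas the epithelial factor KLF5 fell from 35.7 ± 3.28 to 18 ± 1.53 FPKM.

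Of 17 mesenchymal genes 6 rose and 5 fell (median 0.01), or 5 and 8 with the correction. The matrix proteoglycan VCAN fell from 20.0 ± 0.810 to 0.332 ± 0.0978 FPKM (log2 difference -3.98, SE 0.105), tested through Parental alone, and the gelatinase MMP2 from 9.28 ± 0.520 to 5.48 ± 0.296 FPKM. The tropomyosin TPM2 rose from 82.9 ± 6.69 to 168.2 ± 12.9 FPKM and the membrane protease MMP14 from 6.77 ± 0.908 to 14.0 ± 0.828 FPKM, with log2 differences of 1.01 and 0.96 that the correction cut to 0.49 and 0.43. Of 7 other cadherins and catenins, 0 rose and 2 fell by limma (0 and 3 at an unadjusted p under 0.05), or 5 fell with quantile normalization. β-catenin (CTNNB1) and p120 (CTNND1), which hold the tails of both cadherins, fell by 0.27 and 0.28 in log2, calls that the correction ended (adjusted p = 0.875 and 0.0807). The EMT factors and corepressors had 2 higher and 5 lower of 11 tested. CTBP1, a corepressor recruited by ZEB1, rose from 46.9 ± 1.36 to 74.6 ± 2.84 FPKM and its paralog CTBP2 fell from 18.5 ± 2.98 to 12.6 ± 2.25 FPKM, and neither passed with the correction (adjusted p = 0.155 and 0.434).

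Splicing regulators had 2 higher and 4 lower of 9 tested (median -0.23). MBNL2 fell from 3.77 ± 1.10 to 1.16 ± 0.376 FPKM and QKI from 19.2 ± 2.47 to 8.98 ± 0.818 FPKM. The correction kept both calls but cut the log2 differences from -1.14 to -0.49 and from -1.01 to -0.33. TGF-β genes had 3 higher and 5 lower of 12 tested (median -0.22), or 0 and 2 with the correction (1 and 2 at an unadjusted p under 0.05). TGFB1 rose from 44.6 ± 3.22 to 76.8 ± 7.82 FPKM, a call that the correction ended (adjusted p = 0.144), and the co-receptor TGFBR3 fell from 4.11 ± 0.200 to 1.82 ± 0.265 FPKM with a call that held, its log2 difference going from -0.86 to -0.54. The lists were chosen with results of these data known, and their counts are a description beside the shares of all genes.

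**Figure D5:**
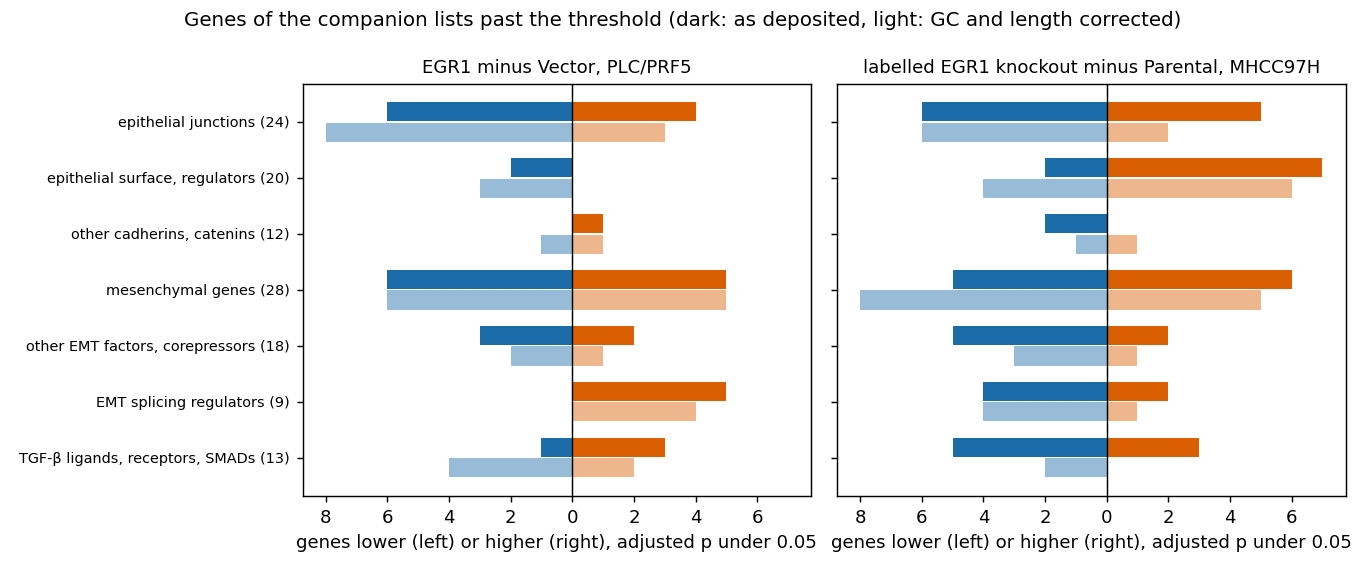
Number of genes in each companion list (list size in brackets) that were lower (left of 0, blue) or higher (right of 0, orange) at an adjusted p under 0.05, as deposited (dark) and corrected for GC content and length (light), in PLC/PRF5 (left panel) and MHCC97H (right panel). Genes of both directions appear in most lists. As deposited, 5 splicing regulators were higher and 0 lower in PLC/PRF5, and 7 epithelial surface genes were higher and 2 lower in MHCC97H. With the correction these were 4 and 0 (beside 3657 of 10829 genes passing) and 6 and 4 (beside 5133 of 10806). As deposited, 19.2% of all genes tested were higher and 10.4% lower in PLC/PRF5, and 34.8% and 31.5% in MHCC97H.

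Markers of other cells were measured beside these changes. Hepatocyte markers summed to between 2735.0 and 3726.1 FPKM in EGR1 libraries, above the Vector range. Of 9 tested, 4 were higher and 1 lower, beside 19.2% and 10.4% of all genes. With the correction it was 5 and 1 (beside 3657 of 10829 genes passing), and with the replicate block 7 and 1 (beside 3253 of 11671). SERPINA1, the most abundant of them, rose from 1371.5 ± 57.6 to 2579.8 ± 510.5 FPKM and APOA1 from 3.18 ± 1.02 to 112.8 ± 4.77 FPKM. TF was the marker that fell, from 111.6 ± 1.08 to 81.6 ± 13.5 FPKM. In the libraries labelled knockout the hepatocyte markers summed to between 43.3 and 48.4 FPKM, above the Parental range. Of 4 tested by limma, 3 were higher and 0 lower, beside 34.8% and 31.5% of all genes. ALB was at 15.2 ± 1.22 against 0.885 ± 0.305 FPKM, tested through the libraries labelled knockout alone. FGB was at 17.5 ± 1.78 against 2.63 ± 0.524 FPKM. HNF4A averaged 7.91 ± 1.77 against 9.64 ± 1.93 FPKM in Parental and APOB 0.15 ± 0.0216 against 1.27 ± 0.109 FPKM. APOA1, APOA2, TTR and SERPINA1 averaged under 1 FPKM in both groups. Of 10 fibroblast and stellate markers, 9 averaged under 1 FPKM in all 4 groups and FAP was listed at 0 throughout, whereas LUM fell from 8.68 ± 1.91 in Parental to 1.18 ± 0.252 FPKM. Leukocyte CD45 (PTPRC) stayed at or under 0.0587 FPKM and CD3E at or under 0.0319, while CD68, a lysosomal protein, lay between 26.3 and 56.2 FPKM and lysozyme (LYZ) between 95.1 and 177.5 FPKM in PLC/PRF5. Of 6 endothelial markers VWF, CDH5, TEK and CLDN5 stayed at or under 0.229 FPKM, and PECAM1 lay between 1.47 and 6.30 FPKM. KDR rose from 0.504 ± 0.0201 in Parental to 1.80 ± 0.169 FPKM in the libraries labelled knockout, and was tested through the latter alone. The part of these markers in the cadherin and ZEB1 differences was not tested.

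The gene whose pattern over the 12 libraries was most like each expressed member was found by the root mean square difference of log2(FPKM + 1), centred on the mean of 12 libraries, among 12090 genes. For CDH1 these were ACSL1 (0.057) and RAB20 (0.084), for CDH2 MARVELD1 (0.081) and ACKR3 (0.115), and for VIM ELAVL1 (0.074) and RNF10 (0.078). ZEB1 was most like FAM160B1 (0.11) and CASD1 (0.132), and SNAI1 most like LOXL2 (0.132) and PC (0.141). FAM160B1 averaged 3.00, 4.39, 11.2 and 5.11 FPKM in Vector, EGR1, Parental and the libraries labelled knockout, in the order of ZEB1 at 1.52, 2.33, 6.70 and 2.66 FPKM. RAB20 resembled CDH1 in being at 0.00 and 0.0306 FPKM in PLC/PRF5 and at 2.42 and 4.05 FPKM in MHCC97H. The libraries fall into 2 cell lines, so such likeness rests largely on the difference between the lines.

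In order of mean level, CDH1 ran Vector, EGR1, Parental, knockout-labelled, and each step was free of overlap. The step from Vector to EGR1 lay at or under 0.0304 FPKM and did not pass with the looser filter (limma adjusted p = 0.317). Of all genes tested, 47.7% were free of overlap within PLC/PRF5, 71.8% within MHCC97H and 81.0% between Parental and Vector. SNAI1 had the same order as CDH1, with overlap between the MHCC97H groups alone. ZEB1 ran Vector, EGR1, knockout-labelled, Parental, with the ranges of EGR1 and knockout-labelled libraries overlapping. CDH2 ran EGR1, Vector, knockout-labelled, Parental, and the PLC/PRF5 groups overlapped. VIM ran EGR1, Parental, Vector, knockout-labelled, from 6.14 ± 0.501 to 7.87 ± 0.782 FPKM, and 2 of its 3 neighbouring pairs overlapped. Genes annotated on the opposite strand overlap CDH1, CDH2, VIM, EPCAM, ZEB1, ZEB2 and TWIST1, VIM-AS1 and ZEB1-AS1 among them, and the use of strand in counting is not given in the sources used here, so reads of such partners may be included in these values.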

How the data were processed

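Poly(A) mRNA of 12 libraries was sequenced after treatment with a duplex-specific nuclease that removes abundant cDNA. The authors deposited FPKM per gene name for all 12. StringTie and hg38 are listed in the submitters' processing notes, and the aligner is not given in the sources used here. Of 22963 names, 3031 were assembled loci, and 97.6% of the other names matched GENCODE release 29, which gave positions, length and GC content. Low values showed no whole-read steps, so depth is unknown and FPKM were not treated as counts.

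log2(FPKM + 1) was tested with limma 3.58.1 (R 4.3.3, intensity trend, no covariates) where the mean over the libraries compared reached 1 FPKM, 2-sided, with Benjamini-Hochberg adjustment over all genes tested and a threshold of 0.05. Groups followed the sample labels, and p-values measure the spread between these libraries. The fits were tested on simulated data. The GC and length correction removed splines with 5 degrees of freedom from each library. Alternatives were a pseudocount of 0.1, a looser filter, 2 scalings, no trend, 1 fit of all libraries, a replicate block, the correction, and leaving out each library. The 10 genes and the companion lists were chosen with earlier results of these data known. Named companion genes are, per list and comparison, among up to 2 rises and 2 falls, largest first, that passed without overlap. CDH1, EPCAM, ESRP1, SNAI1, SNAI2 and TWIST1 had no promoter window. Of 6 antisense or neighbouring names sought, 0 were analysed here.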

Additional observations from a re-analysis of the deposited data

Results flagged for a closer look

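The changes in MHCC97H (libraries labelled EGR1 knockout minus Parental) and in PLC/PRF5 (EGR1 minus Vector) differed for 3 genes by the test of the difference itself in limma. The difference was -1.46 on the log2 scale for ZEB1 (adjusted p = 8.13e-05), 0.49 for VIM (adjusted p = 0.00487) and 0.40 for CDH1 (adjusted p = 0.0117), in a fit where 63.8% of all genes passed. With the correction for GC content and length they were -0.51, 0.51 and 0.40. CDH1 was near 0 in PLC/PRF5 and tested through MHCC97H alone, and its difference did not pass with a pseudocount of 0.1 (0.31, adjusted p = 0.186) or after scaling to a common total (0.29, adjusted p = 0.0724). No group had 4 or more libraries, so no library could be examined for standing apart by its gap to the others.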

How the results depend on the processing

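Of 292 alternative values of single genes, 254 kept their direction and side of the threshold, 19 newly passed, 10 no longer passed and 9 turned sign. In PLC/PRF5, 1 of the 3 genes tested passed, beside 3457 of 11671 genes. With all genes above 0 FPKM tested it was 0 of 8, beside 2963 of 19664. It was 2 without trend (beside 3444 of 11671), 2 in the fit of 12 libraries (3791 of 11671) and 2 with the GC and length correction (3657 of 10829). With a library left out it was 0 to 1 (0 without Vector replicate 3 or EGR1 replicate 2). Over all genes, 1919 to 4007 passed with a library left out, lowest without EGR1 replicate 2, and 2246, 2208 and 2349 without Vector replicate 3, EGR1 replicate 3 and Vector replicate 1, against 3457. In MHCC97H, 2 of the 5 tested passed, beside 7671 of 11577 genes. It was 4 with quantile normalization (beside 7590 of 11577) or with the GC and length correction, alone (5133 of 10806) or with the block (5158 of 10806). With a library left out it was 2 to 4 (4 without EGR1_KO replicate 2, 3 without Parental replicate 3). The values that turned sign, all with the GC and length correction alone or with the block unless stated, were CDH2 in MHCC97H (0.00), SNAI1 in MHCC97H (-0.33), the difference between lines of CDH2 (0.13), and that of SNAI1 with quantile normalization (0.10) and with a library left out (-0.25 to 0.01, the highest without EGR1 replicate 2 or Parental replicate 3). The cause was not tested. In the comparison of the lines, CDH1 fell under the filter without any of the 3 Parental libraries, which left 3 of 4 passing.

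Among all genes past the threshold in PLC/PRF5, 2240 were higher and 1217 lower, against 1506 and 1767 with quantile normalization. In MHCC97H it was 4029 and 3642, against 3153 and 4452 after scaling to a common total, which shifted the median of all genes by -0.13, and by 0.10 between the lines. With the GC and length correction 5133 of 10806 genes passed there, against 7671 of 11577. Deviations of same-numbered libraries had correlations of -0.13 to 0.14 in PLC/PRF5 and 0.03 to 0.47 in MHCC97H, the highest for replicate 3. So few values cannot settle whether the numbers pair the samples. With the replicate block 3253 and 7987 genes passed and SNAI1 in MHCC97H had an adjusted p of 0.0435 at a log2 difference of 0.30. Depth is unknown, so a value of 0 could not be given a limit.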
